A study of Mus musculus with 8 samples.

Results

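The endothelial cells of the mouse hippocampus were examined as 889 cells out of 12954 that passed the cell filter in the 2 hippocampal libraries. A cell was counted as endothelial when at least 3 of 7 genes (Cldn5, Flt1, Pecam1, Ly6c1, Slco1a4, Itm2a and Egfl7) had a unique molecular identifier (UMI, 1 captured RNA molecule) and the mural and glial genes Rgs5, Higd1b, Kcnj8, Mog and Aqp4 had at most 1 UMI in sum. Members were thus chosen by their own counts of these 12 genes, which are given below only as a description. The filter asked for 500 or more detected genes in a cell and a mitochondrial share of its UMIs below 15%. By this rule 516 of 7105 cells were endothelial in the DTRneg library and 373 of 5849 in the DTRpos library. The study sequenced single meningeal CD4+ T cells and, in the hippocampus, asked how the non-neuronal niche changes when regulatory T cells are depleted. DTRneg stands for Foxp3-DTR- and DTRpos for Foxp3-DTR+ littermates, and all of these mice were given diphtheria toxin. The Foxp3-DTR allele places the toxin's receptor on cells that express Foxp3, so the toxin kills regulatory T cells in carriers. Hippocampi of perfused mice were digested and CD45- Thy1- cells, labelled as neurons and glia, were sorted for droplet sequencing. Each library pooled 2 mice and there was 1 library per genotype, so genotype, animals and library preparation cannot be told apart. No test was made between the libraries, and all intervals in brackets are exact 95% intervals that cover counting error only. Age and sex are not given in the sources used here. Foxp3 had 0 UMIs in the filtered cells of both libraries, and the gate leaves out CD45+ cells, so the depletion itself could not be checked in these cells.

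Brain endothelial cells line the vessels and form the blood-brain barrier. They seal their junctions with claudins, hold transcytosis low, pump drugs back into the blood and carry glucose, amino acids, lipids and hormones across by dedicated transporters. Along the vessel tree they differ by zone, from arterioles through capillaries to venules, and the venular end is the usual site of leukocyte adhesion. As cells in contact with the blood they also respond to circulating cytokines, interferons among them.

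The members held 1.13e+06 UMIs in DTRneg and 7.22e+05 in DTRpos. They were shallow cells, with a median of 1968 and 1626 UMIs and 1056 and 947 genes, against medians of 6116 and 4579 UMIs over all filtered cells. All 7 genes of the rule were detected in 232 DTRneg and 164 DTRpos members, and 6 of them in a further 185 and 141. Few cells lay at the edge of the rule. The 9 and 6 members with exactly 3 of the genes had a summed level of the 7 genes of 3631 and 7839 CPM (the gene's UMIs scaled to a library sum of 1e6, over the summed cells), while the 23 and 14 cells just outside, with 2 of the genes, had 611 and 544. On the other side, 79 and 33 cells with 3 or more endothelial genes were left out for 2 or more UMIs of the excluded genes.

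Genes that the rule did not use described the members as brain endothelium. The 15 genes with the highest ratio over all other filtered cells, in the lower of the 2 libraries and among genes of at least 200 CPM, were Tmem252, Slc38a5, AU021092, Pglyrp1, Srarp, Grrp1, Icam2, Hmcn1, Cyyr1, Sox17, Ctla2a, Mecom, Adgrl4, Cdh5 and Ly6a. Cdh5, the vascular cadherin of adherens junctions, stood at 353 and 346 CPM in the members and at 1.19 and 0.871 CPM in the other cells, a log2 ratio of 8.21 and 8.63. Slc38a5, a glutamine carrier, stood at 407 and 328 CPM against 0.975 and 0.755. Sox17, a transcription factor of arterial and barrier endothelium, stood at 343 and 300.5 against 1.07 and 0.174. All 15 were above the other cells in both libraries, by which they had been ranked. Genes listed for other endothelial kinds ranged from few UMIs to measured levels. Plvap, the diaphragm protein of fenestrated vessels outside the barrier, had 2 UMIs in DTRneg and 1 in DTRpos, and the 4 lymphatic marker genes together had 20 and 6 UMIs. The other 3 genes of the fenestrated list, Plpp1, Plpp3 and Cd24a, were measured at 20 UMIs or more. That list summed to 136 and 147 CPM in the members and to 4367 and 4999 CPM in astrocytes. Of the 11 genes listed for sprouting tip cells, 4 were measured at 20 UMIs or more, and the list summed to 108 and 133 CPM. Esm1 of that list had 0 UMIs in both libraries.

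**Figure D1:**
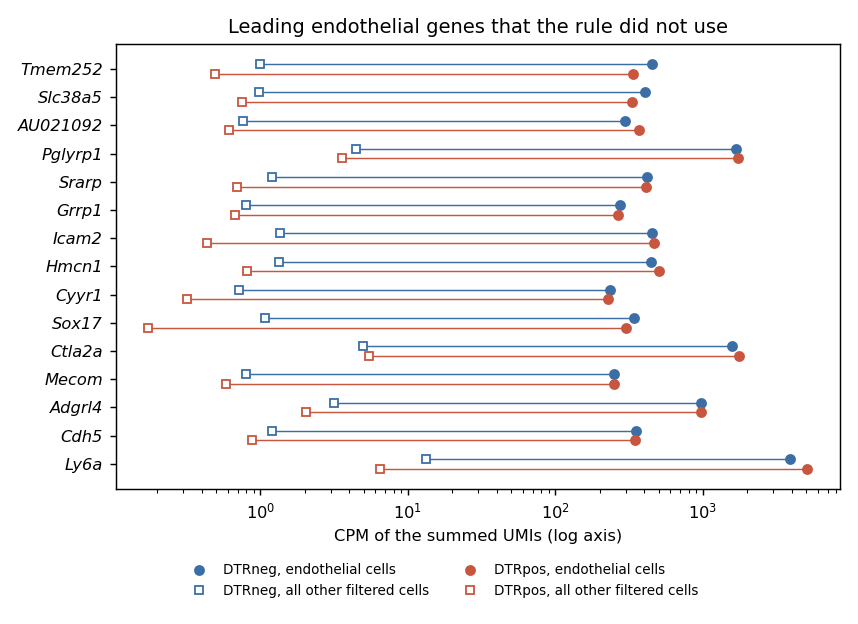
Levels (CPM of summed UMIs, log axis) of the 15 leading genes in the endothelial cells (filled circles) and in all other filtered cells (open squares) of the DTRneg and DTRpos libraries. Lines join the pair of each library, and every endothelial level lies far to the right of the other cells, from a log2 ratio of 8.18 for Ly6a to 8.82 for Tmem252 in the lower library.

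Some members carried RNA of other cells, and this touches the comparisons that follow. A member was called mixed when it held at least 3 marker genes of pericytes, oligodendrocytes, astrocytes, oligodendrocyte precursors, choroid plexus, fibroblasts or neuroblasts, at least 10 haemoglobin UMIs or at least 20 UMIs of Ttr, the transthyretin of choroid plexus. Apart from neuroblasts, these markers were short lists and not the longer lists summed below. The short oligodendrocyte list was Mog, Mag, Mobp, Ermn and Cldn11. Such members numbered 22 in DTRneg (4.26%) and 16 in DTRpos (4.29%), with median depths of 4826 and 4674 UMIs against 1904 and 1595 in the rest. The doublet caller Scrublet marked 10 and 9 of the members. The choroid plexus list summed to 3559.9 CPM in DTRneg and 114 in DTRpos, with 95.2% of the DTRneg UMIs in 5 members. The haemoglobin list summed to 23 and 779.6 CPM, and the oligodendrocyte precursor list to 565 and 949.9, with 77.0% and 65.5% of it in 5 members. The 9 oligodendrocyte genes summed to 1175 and 1267 CPM, with 9.88% and 7.21% in 5 members. At least 3 of these 9 had a UMI in 101 DTRneg and 81 DTRpos members. By the short oligodendrocyte list only 2 and 2 members were mixed. Values without mixed members thus keep most members with such oligodendrocyte RNA. Pericyte genes summed to 113 and 66.5 CPM, and fibroblast genes to 55.8 CPM in DTRneg with all 7 at 0 in DTRpos. The pericyte list holds Rgs5, Higd1b and Kcnj8, and the oligodendrocyte and astrocyte lists hold Mog and Aqp4. The rule capped these genes, so low levels and few mixed calls of these 3 types were set in part by the rule. The microglia and macrophage genes Cx3cr1, P2ry12, C1qa, C1qb, Csf1r, Tmem119 and Mrc1 had 0 UMIs in both libraries. Of 6 lymphocyte genes Cd4 had 1 UMI in DTRpos, and Ptprc, Cd3e, Cd3d, Trbc2 and Nkg7 had 0 in both.

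The vessel zones were read from 12 seed genes, 6 arterial (Bmx, Gkn3, Sema3g, Vegfc, Efnb2, Fbln5) and 6 venous (Slc38a5, Nr2f2, Vwf, Il1r1, Ctsc, Ephb4). A member fell in the arterial or venous range when at least 2 seeds of that kind were detected, and more than of the other kind. The arterial range held 30 DTRneg and 17 DTRpos members and the venous range 142 and 81, while 343 and 275 fell in neither and 1 DTRneg member was tied. These are ranges of a score and not cell types. In the arterial range 12 and 9 members had exactly 2 seeds, in the venous range 72 and 48 had, and among the rest 173 and 130 had 1 seed and 170 and 145 none. The capillary list, which no seed belongs to, had a median over cells of 7799 and 6391 CPM in the arterial range, 6232 and 7784 in the venous range and 10716 and 11272 in neither. The cells in neither range thus held more of the capillary genes in both libraries, and the arterial and venous ranges both held capillary RNA.

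Arterial and venous genes outside the seeds separated the ranges in the same way in both libraries. Of 20 further arterial genes 12 reached at least 100 CPM in 1 of the 2 ranges in each library, and 11 of them were more than 2-fold higher in the arterial range in both libraries, beside 3.85% of all 1740 genes at that level. Of 13 further venous genes 9 reached the level, and all 9 were more than 2-fold higher in the venous range in both libraries, beside 4.08% of the same genes. The ranges come from the same cells, so these values describe them and are no test. Mgp, a matrix protein that inhibits BMP signals and vessel calcification, stood at 2254 against 92.4 CPM in DTRneg and 4983 against 118 CPM in DTRpos, arterial against venous range. Alpl, alkaline phosphatase, stood at 416 against 26.0 CPM in DTRneg and 256 against 10.2 CPM in DTRpos. Hey1, a Notch target that holds arterial identity, stood at 187 against 17.3 CPM in DTRneg and 158 against 10.2 CPM in DTRpos, and Gja4, the connexin 37 of arterial gap junctions, at 144 against 0 CPM in DTRneg and 197 against 15.4 CPM in DTRpos. Eln, the elastin of the arterial wall, stood at 129 against 8.66 CPM in DTRneg and 236 against 15.4 CPM in DTRpos. Of these 5 genes Hey1 had the smallest log2 ratio in DTRneg, at 3.43, and that of Gja4 is a lower bound, since it had 0 venous UMIs there. The other 5 named arterial genes were Stmn2, Egfl8, Cdkn1c, Lmo7 and Pi16. Pi16 had 10 and 7 UMIs in the arterial range and 0 in the venous range of both libraries. Edn1, the vasoconstrictor endothelin 1, had a log2 ratio of 1.93 and 1.94, arterial over venous.

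Venous genes were low in the arterial range, and capillary genes in part: 6 of the 14 capillary genes at the level were more than 2-fold lower there than in the venous range in both libraries, beside 4.08% of all genes, and 0 were higher. Car4, carbonic anhydrase 4 on the luminal face of capillaries and veins, stood at 14.4 against 1253 CPM in DTRneg and 19.7 against 1399 CPM in DTRpos, arterial against venous range, and at 1349.8 and 1298 CPM in neither range. Its level outside the arterial range was about the same in the venous range and in the cells of neither. Icam1, the adhesion molecule that stops rolling leukocytes, stood at 14.4 against 407 CPM in DTRneg and 0 against 477 CPM in DTRpos, and at 63.3 and 153 CPM in neither. Icam1 was thus highest in the venous range of both libraries. Tmsb10, which binds actin monomers, stood at 201 against 5554 CPM in DTRneg and 374 against 4376 CPM in DTRpos. Slc22a8, an organic anion carrier of the barrier, stood at 43.1 against 447 CPM in DTRneg and 59.1 against 436 CPM in DTRpos. The other named genes of this kind were Ctla2a, Ndnf, Apod, Gatm, Nampt and Pim3, with log2 ratios between -4.93 and -2.35 in DTRneg, arterial over venous. Vcam1, the partner of Icam1 in leukocyte arrest, had log2 ratios of -2.37 and -2.33.

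**Figure D2:**
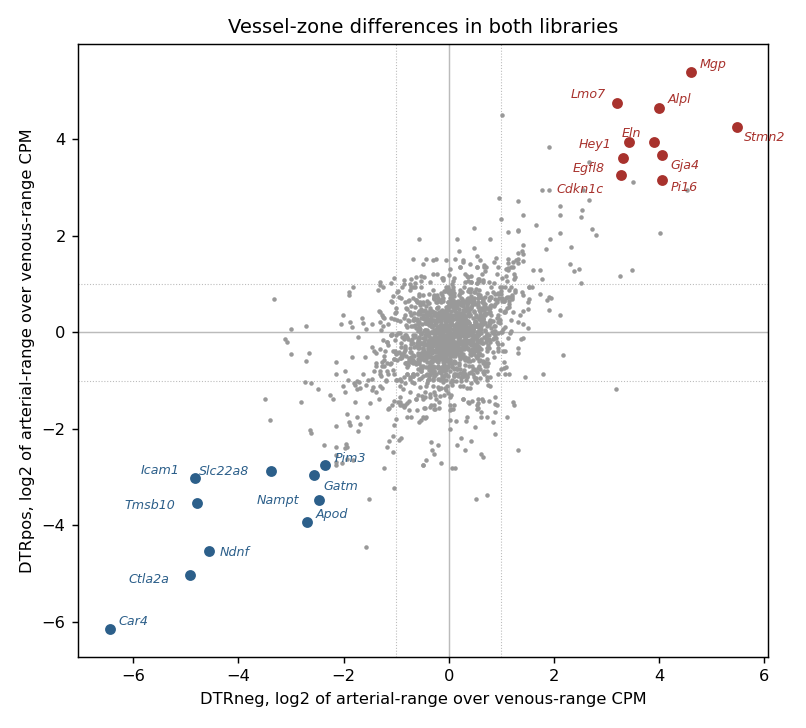
Log2 ratio of CPM in arterial-range over venous-range cells for each of 1740 genes (seeds left out), with the DTRneg library on the x axis and DTRpos on the y axis. Named arterial genes are red, named venous and capillary genes blue, dotted lines mark 2-fold, and ratios with 0 UMIs on a side are drawn at the bound of 3 counts. The named genes lie on the same side in both libraries, such as Car4 at -6.45 and -6.15 and Mgp at 4.61 and 5.40.

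Of 18 solute carriers at the level, 5 were more than 2-fold higher in the venous than in the arterial range in both libraries and 0 the other way, beside 4.08% and 3.85% of all genes. Slc16a1, the carrier of lactate and ketone bodies, stood at 101 against 297 CPM in DTRneg and 19.7 against 430.4 CPM in DTRpos. Slc3a2, the heavy chain of the large amino acid carrier, stood at 229.7 against 742 CPM in DTRneg and 177 against 666 CPM in DTRpos. Slc40a1, the iron exporter ferroportin, stood at 86.2 against 381 CPM in DTRneg and 59.1 against 343 CPM in DTRpos, and Tfrc, the transferrin receptor that brings iron in, at 144 against 473 CPM in DTRneg and 118 against 487 CPM in DTRpos. Both genes of iron transfer were thus low in the arterial range. The glucose carrier Slc2a1 and the lipid carrier Mfsd2a did not pass 2-fold in both libraries: Slc2a1 had log2 ratios of 0.60 and 0.31 and Mfsd2a 0.05 and -1.03, arterial over venous. Of 10 junction genes and 3 efflux pumps at the level, 0 passed 2-fold in both libraries. Claudin 5 (Cldn5) had log2 ratios of -0.18 and -0.20, and the drug pump Abcb1a 0.02 and -0.31.

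The share of members in each range differed little between the libraries. The arterial range took 5.81% (3.96 to 8.20) of the members in DTRneg and 4.56% (2.68 to 7.2) in DTRpos. The venous range took 27.5% (23.7 to 31.6) and 21.7% (17.6 to 26.3). Seeds are missed more often in shallow cells, so each cell was also thinned to 1500 UMIs, which 338 DTRneg and 212 DTRpos members reached. The thinned shares were 5.62% (3.42 to 8.64) and 5.66% (2.96 to 9.68) for the arterial range, and 21.3% (17.1 to 26.1) and 19.3% (14.3 to 25.3) for the venous range. Every pair of intervals overlapped. Of all filtered cells, members made up 7.26% (6.67 to 7.89) in DTRneg and 6.38% (5.76 to 7.03) in DTRpos, a log2 ratio of -0.19 (-0.38 to 0.01). Oligodendrocytes were 3587 and 2530 of the filtered cells, and without them the share was 14.7% (13.5 to 15.9) and 11.2% (10.2 to 12.4), with a log2 ratio of -0.38 (-0.58 to -0.19). Digestion and sorting set these shares as well as the tissue, and their part was not tested.

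Across all genes the endothelial cells of the libraries were close. Among 1833 genes of at least 100 CPM in 1 library and at least 20 UMIs in sum, 24 differed by more than 2-fold (1.31%), of which 15 were higher in DTRpos (0.818%) and 9 lower (0.491%). The median log2 ratio over all 8247 genes of at least 20 UMIs was 0.04, and 54.2% of them lay above 0. Past 2-fold, with no CPM minimum, lay 2.59% of those genes on the higher and 2.66% on the lower side. The 12 highest and 12 lowest ratios at 100 CPM or more were taken as the genes to name. Left out of the naming were predicted genes without a name, mitochondrial transfer RNAs, Xist and the Y-linked genes Ddx3y, Uty, Kdm5d and Eif2s3y. The counts above did not leave them out.

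For the most extreme ratios a few members held most of the UMIs. Hba-a1 and Hba-a2, the haemoglobin alpha chains, and Hbb-bs, a beta chain, had log2 ratios of 7.05, 6.0 and 4.44. In DTRpos 1 member held 154 of 170 Hba-a1 UMIs and 225 of 263 Hbb-bs UMIs. Without the richest member of each library the 3 ratios were 4.64, 3.45 and 1.72, and without the mixed members 3.09 for Hba-a1 and 1.42 for Hbb-bs. All 3 stayed past 2-fold higher in both cases. The haemoglobin genes also lay above 0 in oligodendrocytes, at 0.68, 0.93 and 0.60, and in astrocytes, at 1.74, 1.38 and 1.19. Ttr stood at 3325 CPM in DTRneg and 37.4 in DTRpos, and 3 DTRneg members held 1623, 1322 and 522 of its 3753 UMIs. Its log2 ratio of -6.47 was -5.78 without the richest members and -1.80 without the mixed ones, beside -1.84 in oligodendrocytes, -2.94 in astrocytes and -3.11 in pericytes. Ttr thus stayed past 2-fold lower, and it was lower in the other cell types of the library too. The part of free RNA in it was not tested. Chchd10, a protein of the mitochondrial cristae, had a log2 ratio of -3.92, and of -0.37 without the mixed members. Enpp2, the enzyme autotaxin, had -1.05 and, without the mixed members, 0.19. For Enpp2 the direction thus rests on the mixed members. Cxcl10, a chemokine that interferon induces, stood at 22.1 and 149.5 CPM, and 1 DTRpos member held 86 of its 108 UMIs. Without the richest member of each library its log2 ratio was 1.65, and with at least 1000 detected genes per cell it was -0.66. Lcn2, lipocalin 2 of the acute phase, had 1.03, and -0.17 without the richest member of each library. Without the richest member of each gene 10 genes were past 2-fold in place of 24, and without the mixed members 15 were. Sox4 and Rtn1, genes that neuroblasts also express, had 1.09 and 1.08, and 0.74 and 0.73 without the mixed members.

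A second set of lower genes was lower to a like extent in other cell types of the same library. Ubb, a polyubiquitin gene, stood at 1556 CPM in DTRneg and 720.0 in DTRpos endothelium, a log2 ratio of -1.11 (-1.26 to -0.97), and its ratio was -1.15 in oligodendrocytes, -1.08 in astrocytes and -1.02 in pericytes. The ribosomal protein gene Rpl38 had -1.02 (-1.12 to -0.92), with -0.97, -0.97 and -0.87 in the same 3 types. Rps28, Rpl35, the glycolytic enzyme gene Eno1, Ndufb1-ps and Mir6236 had endothelial ratios between -1.08 and -0.85, and oligodendrocyte ratios between -0.98 and -0.75. On the higher side, mt-Atp6, a subunit of ATP synthase, had 1.21 (0.83 to 1.59) in the members and 1.04, 0.95 and 0.96 in the other 3 types. These genes move with the library across cell types. What library preparation adds to them was not tested.

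The remaining named genes differed in how many members carried them. Hs3st1, which makes the heparan sulfate motif that binds antithrombin, stood at 100.1 CPM in DTRneg and 45.7 in DTRpos, a log2 ratio of -1.13 (-1.74 to -0.56). It was detected in 76 of 516 and 31 of 373 members. Thinned to 1500 UMIs, 13.9% of DTRneg and 6.13% of DTRpos members had a UMI of it. Oligodendrocytes expressed it too, with 145 and 103 CPM and 18% and 13.2% of thinned cells, so a part of the endothelial UMIs may be free RNA, which was not tested. Zfp36, which speeds the decay of cytokine messages, stood at 344 and 188 CPM, with -0.87 (-1.16 to -0.58), and at -0.18 in oligodendrocytes and -0.70 in pericytes. Mgp stood at 189.6 CPM in DTRneg and 478 in DTRpos, a log2 ratio of 1.33 (1.08 to 1.59), but it was carried by 34 and 25 members, with 39.3% and 37.7% of it in 1 member each. Within the arterial range Mgp stood at 2254 and 4983 CPM, and its ratio over all members ran from 0.42 to 2.45 across the alternatives. Cxcl1, a neutrophil chemokine, stood at 46.1 and 105 CPM in 16 and 14 members, 35 of 76 DTRpos UMIs in 1 of them. Its log2 ratio of 1.19 was 0.58 without the richest members and 0.43 with at least 1000 detected genes per cell. Rsad2, the antiviral protein viperin, stood at 92.1 and 212 CPM, with 1.20, and 0.80 without its richest members.

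The barrier genes differed less. Of 13 measured genes of tight and adherens junctions 6 were above 0 on the log2 scale and 7 below, with a median of -0.02, and 0 were past 2-fold. Cldn5, which seals the barrier against small molecules, stood at 4467 CPM in DTRneg and 5396 in DTRpos, a log2 ratio of 0.27 (0.21 to 0.33), although it was part of the rule that chose the cells. Ocln, occludin, stood at 155 and 125 CPM (-0.32), Tjp1, the scaffold ZO-1, at 404 and 446 CPM (0.14) and Cdh5 at 353 and 346 CPM (-0.03). Efflux pumps had a median of 0.17 over 6 genes. Abcb1a, P-glycoprotein, stood at 967 and 1007 CPM, with 0.06 (-0.08 to 0.20), and Abcg2, the breast cancer resistance protein, at 847 and 1023 CPM, with 0.27 (0.13 to 0.41). The interval of Abcg2 lay above 0, by less than 2-fold, and that of Abcb1a included 0.

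Solute carriers had a median of -0.02 over 30 measured genes, with 14 above and 16 below 0. Of the 30, 1 was past 2-fold lower, Atp1b1 of the sodium pump at 34.6 and 15.2 CPM, a share near the 2.66% of all genes. Slc2a1, the glucose carrier GLUT1, stood at 1189.9 CPM in DTRneg and 962 in DTRpos, a log2 ratio of -0.31 (-0.44 to -0.17), and at -0.17 in oligodendrocytes and 0.04 in astrocytes. Slc6a6, the taurine carrier, stood at 976 CPM in DTRneg and 720.0 in DTRpos, with -0.44 (-0.59 to -0.29), and at -0.24 and -0.42 in the same types. Slc2a1 and Slc6a6 were lower in DTRpos beyond counting error, by less than 2-fold. The large amino acid carrier Slc7a5 stood at 289.7 and 295 CPM (0.03), the thyroxine carrier Slco1c1 at 1133 and 1191 CPM (0.07) and Mfsd2a at 287 and 299 CPM (0.06), and the intervals of these 3 included 0. Genes of caveolae, receptors and transcytosis had a median of -0.05 over 18 genes. Tfrc stood at 483 and 579 CPM, with 0.26 (0.07 to 0.45), Cav1, the caveolin, at 274 and 263 CPM, with -0.06 (-0.33 to 0.21), and Bsg, the antibody target basigin, at 14895 and 14513 CPM, with -0.04 (-0.07 to 0.00).

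Metabolic lists showed small shifts. Glycolysis had a median of -0.14 over 14 genes, and of 0.07 without the mixed members, so its sign rests on them. Gapdh stood at 639.7 and 583 CPM (-0.13) and Ldha, which makes lactate, at 445 and 403 CPM (-0.14). Nuclear genes of the respiratory chain had a median of 0.07 over 21 genes and mitochondrial ones -0.14 over 12. Of the 12, mt-Co2 and mt-Atp6 were past 2-fold higher and mt-Nd3 past 2-fold lower, beside 2.59% and 2.66% of all genes. mt-Nd3 was lower in oligodendrocytes too, with -1.95 beside -1.68 in the members, and mt-Co2 higher, with 0.78 beside 1.33. Lipid genes had a median of -0.05 over 18 genes. Antioxidant and detoxification genes lay below 0 in 13 of 16, where 54.2% of all genes lay above 0, with a median of -0.18. Of the 16, 1 was past 2-fold lower, beside 2.66% of all genes. It was Gstp1, at 22.1 and 5.54 CPM (-2.0, and -1.62 without mixed members). Gpx4, which clears lipid peroxides, stood at 609.6 and 404 CPM, with -0.59 (-0.79 to -0.39), and at -0.51 in oligodendrocytes. Mt1, a metal-binding metallothionein, stood at 857 and 631 CPM, with -0.44 (-0.60 to -0.28), against 0.26 in oligodendrocytes and 0.20 in astrocytes.

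Endothelial transcription factors lay below 0 in 11 of 16 genes, where 54.2% of all genes lay above 0, with a median of -0.22 and a summed level of 8415 and 7105 CPM, a log2 ratio of -0.24 (-0.29 to -0.20). Klf2, which blood flow induces, stood at 3771 CPM in DTRneg and 2789 in DTRpos, with -0.44 (-0.51 to -0.36), and at 0.00 in oligodendrocytes, -1.24 in astrocytes and -0.01 in pericytes. Klf2 alone made up a large part of the summed level of the list and most of its fall. Sox18, a factor of vessel growth, was the 1 gene of these 16 past 2-fold lower, beside 2.66% of all genes. It stood at 79.7 and 36.0 CPM, with -1.15 (-1.84 to -0.50). A UMI of it was found in 12.7% and 4.72% of thinned members and in 0% of thinned oligodendrocytes. In full cells it was found in 76 of 516 and 23 of 373. Its relatives Sox17, at 343 and 300.5 CPM (-0.19), and Sox7, at 58.5 and 45.7 CPM (-0.36), had intervals that included 0. Epas1, the hypoxia-inducible factor of endothelium, was on the other side, at 465 and 589.9 CPM, with 0.34 (0.15 to 0.53). The Wnt and barrier programme had a median of -0.07 over 19 genes with 0 past 2-fold. Lef1, its nuclear effector, stood at 383 and 378 CPM (-0.02) and Foxq1 at 479 and 523 CPM (0.13).

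Receptors of growth signals had a median of 0.00 over 17 genes, with 0 past 2-fold. Kdr, the main VEGF receptor, stood at 583 and 580.2 CPM, with -0.01 (-0.19 to 0.17), and Tek, the angiopoietin receptor, at 333 and 390.5 CPM, with 0.23 (0.00 to 0.46). The BMP targets Id1 and Id3 stood at 1219 and 1008 CPM and at 1742 and 1309 CPM, with -0.27 and -0.41, and Id3 was at -0.59 in oligodendrocytes and -0.57 in astrocytes. Of 10 measured ligands that endothelium sends to other cells 8 lay below 0, where 54.2% of all genes lay above 0, with a median of -0.23. Jag1 and Igfbp4, the latter at 18.6 and 4.15 CPM, were past 2-fold lower, 2 of the 10 beside 2.66% of all genes. Jag1, a Notch ligand, stood at 53.2 and 26.3 CPM, with -1.01 (-1.84 to -0.25). Pdgfb, which recruits pericytes, was higher, at 267 and 350.3 CPM, with 0.39 (0.15 to 0.64). Ptn, pleiotrophin, stood at 2249 and 1904 CPM (-0.24) and Kitl, the ligand of Kit, at 560.0 and 474 CPM (-0.24). Coagulation and vasoactive genes had a median of -0.19 over 12 genes. Of the 12, 1 was past 2-fold lower, beside 2.66% of all genes: Procr, the protein C receptor, at 23.9 and 11.1 CPM. Thbd, the anticoagulant thrombomodulin, stood at 144 and 96.9 CPM, with -0.57 (-0.99 to -0.15), and Edn1 at 269 and 346 CPM, with 0.36 (0.11 to 0.61). Basement membrane genes had a median of 0.04 over 15.

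**Figure D3:**
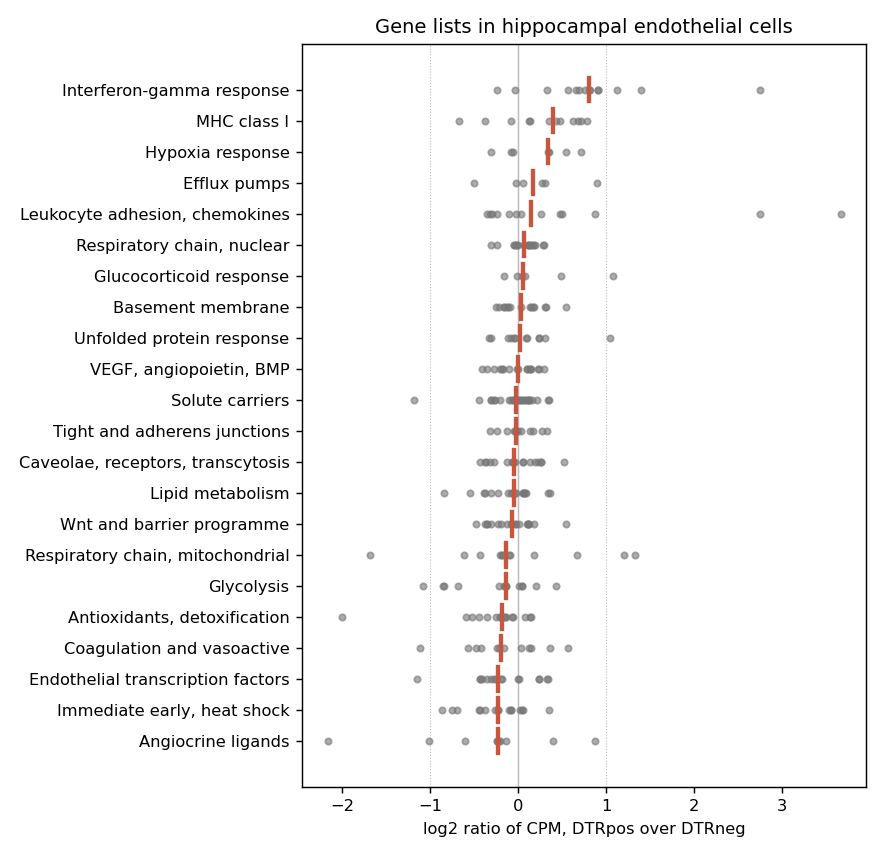
Log2 ratio of CPM in DTRpos over DTRneg for the measured genes (at least 20 UMIs, grey points) of 22 gene lists, ordered by their median (red bar), with dotted lines at 2-fold. Cxcl9, with 0 UMIs in DTRneg, is not drawn. The interferon-gamma and MHC class I lists stand at the top, with medians of 0.81 and 0.39, and the angiocrine list at the bottom with -0.23.

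Among the lists of function, the median farthest from 0 was that of genes induced by interferon-gamma, a cytokine of T cells and natural killer cells, a pattern already known from earlier results of these data. Of 15 measured genes 13 lay above 0, beside 54.2% of all measured genes, and 4 lay past 2-fold higher, beside 2.59%. Promoters of such genes often hold an interferon-stimulated response element (ISRE, searched as GAAA, any 2 bases and GAAA) or a gamma-activated site (GAS, searched as TTC, any 3 bases and GAA), each on both strands. The 150 bases before the start of 5 genes are shown, 5′ to 3′ on the gene's strand, from the RefSeq promoter table of build GRCm38.p6: Gbp5, Gbp7 and Irgm2 as interferon-induced GTPase genes, B2m as the light chain of MHC class I, and Hs3st1 as a lower gene without a match. Capitals mark ISRE and GAS matches.
Gbp5: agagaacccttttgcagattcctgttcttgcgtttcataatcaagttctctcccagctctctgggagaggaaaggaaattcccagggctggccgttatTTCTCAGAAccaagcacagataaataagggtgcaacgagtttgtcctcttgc
Gbp7: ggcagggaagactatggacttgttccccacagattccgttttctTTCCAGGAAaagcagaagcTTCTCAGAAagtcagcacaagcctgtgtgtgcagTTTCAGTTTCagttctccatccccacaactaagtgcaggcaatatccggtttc
Irgm2: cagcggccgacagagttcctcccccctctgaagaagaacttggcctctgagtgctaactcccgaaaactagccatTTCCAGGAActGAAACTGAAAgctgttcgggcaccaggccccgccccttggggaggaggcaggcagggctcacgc
B2m: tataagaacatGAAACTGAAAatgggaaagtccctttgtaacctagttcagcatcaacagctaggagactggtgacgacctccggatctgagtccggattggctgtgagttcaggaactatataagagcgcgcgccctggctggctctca
Hs3st1: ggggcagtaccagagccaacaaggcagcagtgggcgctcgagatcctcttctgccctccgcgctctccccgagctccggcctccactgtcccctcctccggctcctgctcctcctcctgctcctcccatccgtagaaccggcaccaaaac

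These windows lie at chr3:142496784-142496933 (Gbp5, plus strand), chr3:142530186-142530335 (Gbp7, plus), chr11:58214827-58214976 (Irgm2, plus), chr2:122147537-122147686 (B2m, plus) and chr5:39644632-39644781 (Hs3st1, minus), each just upstream of its gene. The GAS matches of Gbp5 and Irgm2 begin 52 and 75 bases before the start, and the ISRE matches of Irgm2, Gbp7 and B2m begin 64, 53 and 139 bases before it. No 2 marked matches overlap. Within 250 bases before the start, an ISRE match was found in 9 of the 12 measured interferon-gamma genes with a promoter entry (75%), against 3.46% of 27025 genes. A GAS match was found in 5 of the 12 (41.7%), against 8.13%. Among 11 MHC class I genes 2 had an ISRE and 1 a GAS match, and among 23 solute carriers 0 had an ISRE and 3 a GAS match (13.0%). Of the 12 lowest genes 8 had an entry, with an ISRE match in 1 and a GAS match in 3 (37.5%), so the GAS share of the interferon-gamma genes was close to that of the lowest genes. A kappaB motif (GGG, any 2 bases and TTTCC), not marked above, was found in 1 of the 12 interferon-gamma genes (8.33%), 2 of the 11 MHC class I genes and 1.65% of all genes. A match is a stretch of letters and was not tested as a binding site.

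The guanylate-binding protein genes were higher in DTRpos in many members. Gbp5, whose promoter is shown above, stood at 85.9 CPM in DTRneg and 187 in DTRpos, a log2 ratio of 1.12 (0.73 to 1.51). It was detected in 73 of 516 and 79 of 373 members, and in 10.7% and 20.3% of thinned ones, while thinned oligodendrocytes (median 7486 and 6136 UMIs before thinning) had it in 0%. Gbp7 stood at 178 and 334 CPM, with 0.91 (0.63 to 1.18), and Gbp2 at 105 and 198 CPM, with 0.91 (0.55 to 1.27). Irgm2, a GTPase of cell-autonomous defence, stood at 57.6 and 101 CPM, with 0.81 (0.31 to 1.32), and Cd274, the checkpoint ligand PD-L1, at 14.2 and 37.4 CPM, with 1.40 (0.45 to 2.39). Irf1, a transcription factor that interferon-gamma induces, stood at 120.5 and 151 CPM, with 0.32 (-0.05 to 0.70). The interval of Irf1 thus included 0, and its difference from the Gbp genes was not tested. Cxcl9 had 0 UMIs in DTRneg and 56 in DTRpos, from 2 members. Summed over the interferon-gamma list, the log2 ratio was 0.84 (0.74 to 0.95) in the members. It was 0.31 (0.11 to 0.51) in oligodendrocytes, at 14.9 and 18.5 CPM, and 0.06 (-0.19 to 0.31) in astrocytes. In pericytes it was -0.86 (-1.53 to -0.23), at 208 and 115 CPM, with 1 gene of the list measured. The difference between these types was not tested.

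Genes of antigen presentation by MHC class I shared the direction of the members' interferon genes at a smaller size. Of 12 measured genes 9 lay above 0, beside 54.2% of all genes, with a median of 0.39 and 0 past 2-fold. B2m stood at 984 CPM in DTRneg and 1615 in DTRpos, with 0.71 (0.59 to 0.83), and was found in 68.3% and 82.1% of thinned members against 3.0% and 2.86% of thinned oligodendrocytes, and in 374 of 516 and 305 of 373 members at full depth. H2-K1, a class I heavy chain, stood at 851 and 1145 CPM, with 0.43 (0.29 to 0.56). Psmb8 and Psmb9 of the immunoproteasome stood at 273 and 421 CPM and at 114 and 183 CPM, with 0.63 and 0.68, and the peptide pump gene Tap1 had 0.78 (0.25 to 1.32). Its partner Tap2 was on the other side, at 63.8 and 40.2 CPM, with -0.67 (-1.34 to -0.03). Summed over the list, the level was 4209 and 5584 CPM in the members, a log2 ratio of 0.41 (0.35 to 0.47). In oligodendrocytes the sum was 89.1 and 95.4 CPM, in astrocytes 341 and 319.6, and in pericytes 830.2 and 699. The difference between endothelium and these types was not tested, as each has 1 library per genotype.

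The interferon genes were spread over the members and over the vessel ranges. At 1500 UMIs per cell, 23.4% (19.0 to 28.3) of DTRneg members and 40.6% (33.9 to 47.5) of DTRpos members held at least 3 UMIs of the list. In thinned oligodendrocytes these shares were 0.0281% and 0.0806%. Members without a UMI of the list were 33.7% and 24.1%. The 5 richest members held 14.5% and 23.6% of the thinned list UMIs. In DTRpos 1 member held 112 of them, where the median was 2 per member. The same DTRpos member was richest in Cxcl10, Rsad2 and Gbp5. Without the member richest in the list in each library, the log2 ratio over all members was 0.72 (0.61 to 0.82), against 0.84. In the arterial range the list summed to 1623 and 3092 CPM in DTRneg and DTRpos, a log2 ratio of 0.93 (0.57 to 1.29). In the same range the oligodendrocyte precursor list stood at 28.7 and 1576 CPM, with 1 of 30 and 3 of 17 members mixed, and without the mixed members the interferon ratio was 1.20 (0.83 to 1.57). In the venous range the interferon list summed to 1504 and 1834 CPM, with 0.29 (0.09 to 0.48), and in neither range to 1129 and 2383 CPM, with 1.08 (0.95 to 1.21). The order of the DTRneg levels was thus arterial, venous, neither, with the arterial and venous intervals overlapping and the arterial level at 1021 CPM without its richest member, and in DTRpos the venous range was the lowest. Without the member richest in the list in each range and library the ratios were 1.37 (0.94 to 1.82), 0.21 (0.00 to 0.41) and 0.89 (0.75 to 1.03), in the same order of ranges. The MHC class I list gave 0.74 (0.53 to 0.95) in the arterial range (0.998 without mixed members), 0.17 (0.06 to 0.27) in the venous range and 0.54 (0.45 to 0.62) in neither. In both lists the smallest ratio was that of the venous range, whose DTRneg level of MHC class I was the highest of the 3, at 5635 CPM against 3438 in neither. The difference between ranges was not tested.

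**Figure D4:**
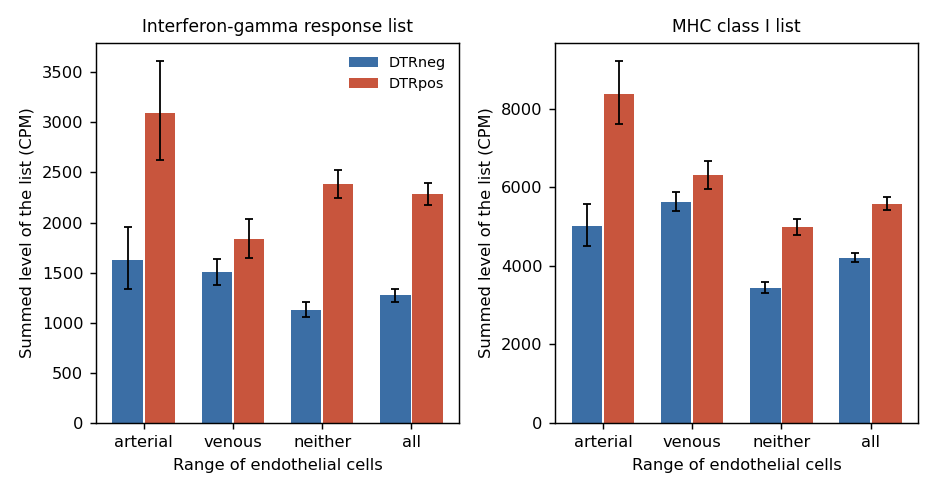
Summed level (CPM) of the interferon-gamma list (left) and the MHC class I list (right) in endothelial cells of the arterial range, the venous range, neither range and all members, in DTRneg (blue) and DTRpos (red). Bars start at 0, error bars are exact 95% Poisson intervals of the UMI sums and there is 1 library per genotype. The red bar is the higher of each pair, with the smallest ratio in the venous range.

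Of 14 measured leukocyte adhesion and chemokine genes 8 lay above 0, beside 54.2% of all genes, and 3 (Sele, Cxcl9 and Cxcl10) were past 2-fold higher, beside 2.59%, with a median of 0.15, which was -0.06 with at least 1000 detected genes per cell. Icam1 stood at 166 CPM in DTRneg and 229.9 in DTRpos, with 0.47 (0.16 to 0.78), and Vcam1 at 291 CPM in DTRneg and 238 in DTRpos, with -0.29 (-0.57 to -0.02). The partners thus lay on opposite sides of 0. By range, the log2 ratio of Icam1 was 0.23 in the venous range, with an interval that included 0. In neither range it was 1.28, at 63.3 CPM in DTRneg and 153 in DTRpos, with an interval above 0. The arterial range held 1 UMI of Icam1 in DTRneg and 0 in DTRpos. The difference of Icam1 ratios between ranges was not tested. Sele, E-selectin of the rolling step, had 7 UMIs in 3 DTRneg members and 57 in 2 DTRpos members, 46 of them in 1. Ackr1, the chemokine receptor of venules, had 62 UMIs in 19 members and 73 in 8. Sele and Ackr1 therefore count few cells, as do Cxcl9 and Cxcl10. Summed over the list, the venous range stood at 3842 and 4924 CPM, a log2 ratio of 0.36 (0.24 to 0.48), and 0.22 (0.10 to 0.35) without the richest member of each library. The arterial range stood at 5442 and 3939 CPM, with -0.47 (-0.72 to -0.22), and neither range at 5588 and 5480.3 CPM, with -0.03 (-0.10 to 0.04). Without mixed members the ratio was 0.40 (0.28 to 0.52) in the venous and -0.27 (-0.53 to -0.01) in the arterial range. In neither range it was then -0.10 (-0.17 to -0.03). The list was thus higher in DTRpos in the venous range and lower in the arterial range, and the difference between ranges was not tested. Cxcl12, which vessels present to stem cells and leukocytes, stood at 2998 and 2794 CPM, with -0.10 (-0.18 to -0.02). Over all members the list summed to 5039 and 5222 CPM, so Cxcl12, also on the capillary list, was its largest part. The list sums are thus not sums of adhesion genes alone.

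Immediate early and heat shock genes, which tissue digestion induces, lay below 0 in 12 of 16, where 54.2% of all genes lay above 0, with a median of -0.23. Hspa1b, a heat shock chaperone, stood at 1271 CPM in DTRneg and 757 in DTRpos, with -0.75 (-0.89 to -0.60), and at -0.72 in oligodendrocytes, -1.30 in astrocytes and -1.07 in pericytes. Btg2, which slows division, had -0.45, beside -0.40, -0.43 and -0.48. Fos stood at 3747 and 3503 CPM (-0.10) and Fosb was higher, at 666 and 852 CPM (0.35). In the venous range the list summed to 31995 and 23299 CPM, with -0.46 (-0.51 to -0.41), in the arterial range to 22198 and 17430.5 CPM, with -0.35 (-0.47 to -0.23), and in neither range to 19740.1 and 20930.1 CPM, with 0.08 (0.05 to 0.12) and, without mixed members, 0.00 (-0.04 to 0.03). The part of digestion in the lower levels of Klf2 and Zfp36, which it also induces, was not tested. Glucocorticoid-induced genes had a median of 0.06 over 6 genes. Of the 6, 1 was past 2-fold higher, beside 2.59% of all genes: Per1 of the circadian clock, at 15.1 and 31.8 CPM. In this list Cdkn1a, the cell cycle inhibitor p21, stood at 601 and 842 CPM, with 0.49 (0.33 to 0.65), beside 1.84 in oligodendrocytes. Genes of the unfolded protein response had a median of 0.03 over 12, with Ddit3, the stress factor CHOP, at 36.3 and 74.8 CPM, with 1.04 (0.43 to 1.66).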

How the data were processed

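Single-cell RNA of hippocampal CD45- Thy1- cells was measured in 2 libraries. Values are whole-number UMI counts as the authors deposited them, with no scaling, and per the file headers Cell Ranger 6.1.0 wrote them. The submitters' processing notes name mm10 and Seurat, with no role. Counts were summed over members and given as CPM of their total. Ratios carry an exact 95% binomial interval. A gene was measured at 20 UMIs over both libraries and compared past 2-fold at 100 CPM in 1 library. Of 55487 gene IDs, those sharing a symbol were summed. Python 3.11.15, numpy 2.4.6, scipy 1.17.1, pandas 2.3.3 and Scanpy 1.11.5 (Scrublet) were used, and the ratios were tested on simulated data. The simulated gene sums were independent counts, so UMIs gathered in single members were not part of that check. Scrublet marked 242 of 7105 and 158 of 5849 cells, which were kept in the main values. The libraries shared 18 barcodes, 0 of them of members. The members, gene lists and alternatives were chosen with earlier results of these data known. Comparison cells were classed by marker genes. The alternatives without mixed members and without the richest member of each gene were chosen after seeing the data. Named genes were the 12 highest and 12 lowest ratios, 15 leading endothelial genes, 10 genes of each range and members of the lists. A count of 0 was set to 3 counts for bounds. The meningeal samples were not analysed here.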

Additional observations from a re-analysis of the deposited data

How the results depend on the processing

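The count of 24 genes past 2-fold became 15 without the Scrublet doublets, 15 without mixed members, 13 with cells weighted equally and 10 without the richest member of each gene. It was 52 at a minimum of 50 CPM, 11 at 200 CPM and 433 with no CPM minimum, and within 1.5 times of 24 in the other 6 alternatives. Fewer or more genes are compared under another minimum. For the other changes the cause was not tested. The log2 ratio of the endothelial share was -0.44 with at least 1000 detected genes and -0.38 over cells other than oligodendrocytes, against -0.19. Cxcl10 turned to -0.66 with at least 1000 detected genes, Lcn2 to -0.17 without its richest member and Enpp2 to 0.19 without mixed members. Among list medians, the arterial seeds turned to -0.019 without mixed members, -0.62 with cells weighted equally and -0.089 without the richest members. The further arterial genes turned to -0.0068 when thinned. The tip cell list turned to 0.47 with 0 excluded UMIs, 0.33 with at least 1000 genes, 0.0030 with equal weights and 0.31 without the richest members. Glycolysis turned to 0.072 without mixed members and leukocyte adhesion to -0.063 with at least 1000 genes. The hypoxia list had a main median of 0.34 over 7 measured genes, 4 above 0 and 3 below. Its summed level went the other way, with a log2 ratio of -0.14 (-0.25 to -0.04). The hypoxia median turned to -0.077 when thinned. Counted over pairs of a list and an alternative, 273 of the other medians stayed within a log2 distance of 0.585 (1.5-fold) and 1 moved. That distance is wider than the main median of every such list but interferon-gamma, so the count says little of small medians. Nor was a change of sign counted for medians within 0.1 of 0, such as capillary, from -0.10 to 0.07. The fenestrated list ran up to 0.57 and the tip cell list down to -0.69. That 1 was the arterial seeds, at 0.77 with at least 1000 genes against 0.13. The interferon-gamma median ran from 0.74 to 0.83 and that of MHC class I from 0.34 to 0.49. Median-of-ratios scaling moved all ratios by 0.02. No paired analysis was possible because each genotype has 1 hippocampal library and the numbered replicates of the labels are meningeal samples. With 1 library of 2 pooled mice per genotype, the spread between animals is unknown. The depth of the members limits single genes near 20 UMIs, whose intervals span more than 2-fold, and the arterial range, with 17 cells in DTRpos.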

Other observations

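Cell cycle genes were nearly silent in the members. The 10 listed genes had 5 UMIs in DTRneg and 54 in DTRpos, and 50 of the latter came from 2 members, both of the venous range, at 8115 and 8557 UMIs each. These had 6 and 4 of the 7 endothelial genes, and 1 of them was among the mixed members. In DTRneg 0 of 516 members held 3 or more cell cycle genes, with an exact 95% interval up to 0.712%.

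Gadd45b and Kifap3 were also past 2-fold higher in DTRpos but fell outside the 12 named, and were looked at after their values were seen. Gadd45b, a stress-induced gene, stood at 164.8 CPM in DTRneg and 331 in DTRpos, with 1.01 (0.72 to 1.29), and Kifap3, a kinesin adaptor, at 51.4 and 104 CPM, with 1.02 (0.50 to 1.54).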
